A study of Mus musculus with 18 samples.

Results

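The genes described here encode dual-specificity phosphatases, which remove phosphate from MAP kinases, and 3 of the MAP kinases themselves. They were taken as a named list of 9 genes, Dusp1, Dusp4, Dusp6, Dusp8, Dusp10, Dusp26, Mapk3, Mapk14 and Mapk8, with every probe set that the array's annotation assigns to them, out of 18194 genes named on the array. Of these genes, 8 had at least 1 probe set, 20 of the 45101 probe sets on the array in all, and no probe set is assigned to Mapk3 in the annotation used here, so Mapk3 was not analysed. After removal of dim probe sets, 17 of the 20 were left among 27000, and they read 7 genes. The study deleted the gene for serum response factor (SRF), which drives muscle genes and genes of the growth response, in adult mice and measured RNA from the cardiac ventricles on Affymetrix arrays, 1 array per sample, 18 in all. Mutants, labelled SRFHKO, and controls, which were SRF-flex2neo littermates, were male, of strain CR7BL6 and 10 weeks old, and every animal of both genotypes had received 0.7 mg of tamoxifen for 3 days. At day 8 there were 4 SRFHKO and 2 control hearts. At day 25 there were 3 SRFHKO hearts with phenylephrine (PE), 3 SRFHKO hearts without it, 3 control hearts with PE and 3 control hearts without it. PE, which activates alpha-1 adrenergic receptors, came from an implanted osmotic minipump that delivered 80 mg/kg/day and ran between days 10 and 25. The sources used here do not give the promoter or cell type that drives recombination in the mutants.

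MAP kinases are the last step of a relay in which one kinase phosphorylates and so activates the next. The ERK branch, with Mapk3, answers mainly to growth factors and adrenergic agonists, the p38 branch, with Mapk14, and the JNK branch, with Mapk8, mainly to stress. Dual-specificity phosphatases take the activating phosphates off again, and several are themselves induced by the kinases they switch off. ERK also phosphorylates the ternary complex factors that bind with SRF at CArG boxes, so SRF target genes are one of the outputs of the pathway in muscle. The arrays measured RNA only, not phosphorylation or protein.

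The promoters of Dusp1 and Dusp8 are shown because both hold the cAMP response element, a binding motif of CREB, while no member promoter in the table held a CArG box. The CArG box was searched as CCWWWWWWGG, where W is A or T, and near matches were not counted. RefSeq (GRCm38.p6) gave a window of 250 bases before an annotated start for 6 of the 9 genes, 8 windows in all, and both strands were searched. Each line runs 5′ to 3′ on the gene's own strand up to the base before the start, and capitals mark the cAMP response element TGACGTCA.
Dusp1, chr17:26508473-26508722, minus strand: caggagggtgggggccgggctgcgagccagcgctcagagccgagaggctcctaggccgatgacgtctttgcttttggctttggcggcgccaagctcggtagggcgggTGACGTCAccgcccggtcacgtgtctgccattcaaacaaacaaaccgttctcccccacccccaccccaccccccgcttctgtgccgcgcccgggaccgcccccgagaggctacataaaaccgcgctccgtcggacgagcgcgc
Dusp8, chr7:142095285-142095534, minus strand: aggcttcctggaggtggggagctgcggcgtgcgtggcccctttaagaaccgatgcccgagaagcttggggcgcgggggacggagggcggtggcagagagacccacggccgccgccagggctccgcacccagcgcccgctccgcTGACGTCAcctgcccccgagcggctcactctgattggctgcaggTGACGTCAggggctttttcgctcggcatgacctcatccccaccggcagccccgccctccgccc
The Dusp1 window held the element once, with its first base 143 bases before the start. The Dusp8 window held it at 107 and at 63 bases before the start. Of all 32851 windows in the table, 1.55% held this element and 1.47% a CArG box. The AP-1 site TGANTCA was in 0 of the 8 member windows, against 6.75% of all windows. The letters CCGGAA, a form of ETS site, were in 1 of the 8, the window of the second Mapk14 start, against 12% of all windows. Shorter or other ETS matches were not searched. These are matches of letters and not shown to be bound.

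Levels are given as scaled signal, the deposited linear intensity brought to a common trimmed mean on every array, and differences as log2(scaled signal + 2) with their standard error, so that changes of dim genes are understated. A probe set was kept where its mean over the arrays lay above a scaled signal of 9.96. Of the 2 probe sets for Srf, neither passed the test in SRFHKO hearts. The difference of SRFHKO minus control at day 25 without PE was -0.54 ± 0.19 for 1418256_at (limma, adjusted p = 0.148) and -0.06 ± 0.19 for 1418255_s_at (adjusted p = 0.911). At day 8 the differences were 0.27 ± 0.20 and 0.23 ± 0.20 (adjusted p = 0.679 and 0.728), and with PE they were 0.02 ± 0.19 and -0.19 ± 0.19 (adjusted p = 0.985 and 0.738). The sources used here do not say whether either lies in the deleted part of the gene, so they do not check the genotype labels. The 8 cardiomyocyte markers examined, such as Myh6, Tnni3 and Ryr2, were bright on all 18 arrays. The arrays differed before scaling: at day 25 the trimmed mean was 71.2 to 83.5 in SRFHKO and 46.6 to 68.5 in control arrays without PE, and 75.9 to 85.4 against 52.5 to 75.3 with PE. At day 8 it was 110 to 148 in SRFHKO and 125 to 138 in control arrays, above every array of day 25. Day and array brightness therefore cannot be told apart in steps between groups of different days. At day 25 the SRFHKO arrays were brighter than the control arrays without overlap, with PE and without it. Genotype and array brightness thus cannot be fully told apart in the genotype comparisons of day 25 either. The 2 control arrays of day 8 stood apart in RNA measures. Their ratio of 3′ to 5′ Gapdh signal was 1.01 and 1.02, against 0.820 to 0.945 on the other 16 arrays, and their 18S rRNA signal was 2426 and 3069, against 633 to 1896. Nothing beyond the word biological in the titles says that the hearts were handled separately, so p-values measure the spread between these samples.

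Of the phosphatases and kinases, Dusp1 passed the test, in 2 comparisons that both include the untreated SRFHKO hearts of day 25, and the other 6 genes read by these probe sets passed in none. SRFHKO minus control called 1 of 17 probe sets at day 25 without PE, where 2.19% of all probe sets were called, and 0 of 17 at day 25 with PE (0.930% of all) and at day 8 (0.170% of all). PE minus no PE called 1 of 17 in SRFHKO hearts (0.185% of all) and 0 of 17 in control hearts (0.0259% of all). The difference between the PE effects of the genotypes, and that between the deletion effects of the days, called 0 of 17 each, against 0.00370% and 0.0407% of all. At an unadjusted p under 0.05, limma gave 5, 4, 5, 1 and 5 of the 17 for the 5 simple comparisons in the order day 8, day 25 without PE, day 25 with PE, PE in control and PE in SRFHKO. The same shares over all probe sets were 11.8%, 17.4%, 12.8%, 10.1% and 9.82%. It gave 4 and 3 of the 17 for the differences between effects, against 7.40% and 12.3% of all. The median difference over the 17 lay between -0.13 and 0.27 in the simple comparisons, and that over all probe sets between -0.04 and 0.04. Probe sets of 1 gene share their transcript, so they are not separate observations.

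**Figure D1:**
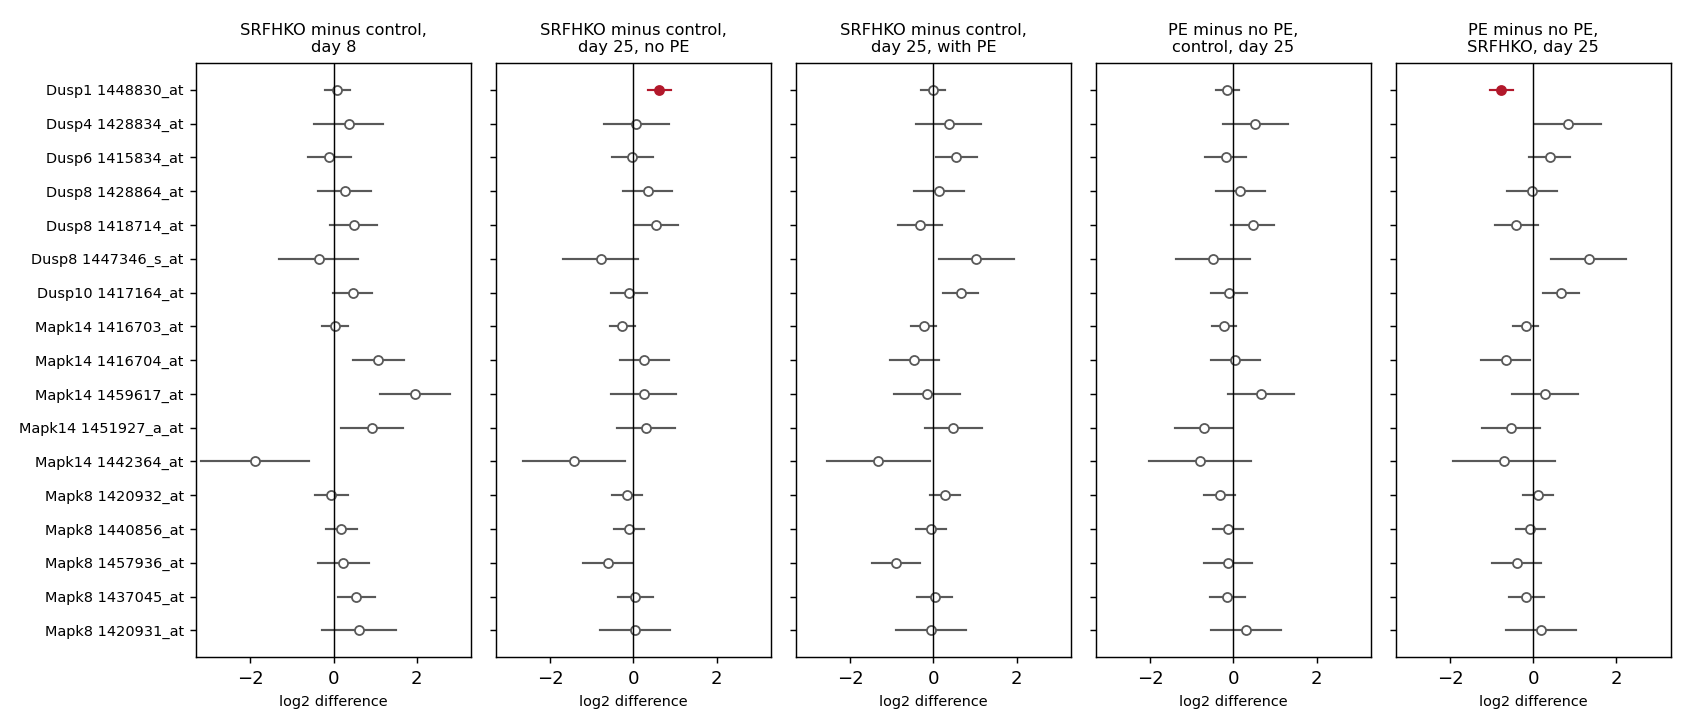
Log2 difference (x axis) of each of the 17 member probe sets (rows) in the 5 simple comparisons (panels), with 95% intervals from limma's moderated fit; filled red points passed an adjusted p of 0.05. Only Dusp1 is filled, at 0.62 for SRFHKO minus control at day 25 without PE and at -0.77 for PE minus no PE in SRFHKO hearts.

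Dusp1 encodes the nuclear phosphatase of p38, JNK and ERK that is induced as an immediate-early gene. Its level was higher in untreated SRFHKO hearts at day 25 than in control hearts, and lower in SRFHKO hearts given PE than in those without it. The scaled signal of its probe set, 1448830_at, was 1596, 1418 and 1588 in SRFHKO hearts at day 25, against 1069, 1074 and 863 in control hearts. With PE it was 794, 869 and 1043 in SRFHKO hearts, against 970, 900 and 840 in control hearts. At day 8 it was 861, 1113, 1068 and 864 in SRFHKO hearts, against 807 and 1026 in control hearts. The 3 untreated SRFHKO arrays of day 25 lay above all 15 others, of which the highest was at 1113, while the other groups overlapped. In the order of group means, the step from untreated SRFHKO at day 25, 1534 ± 101 (SD, n = 3), down to untreated control at day 25, 1002 ± 121 (SD, n = 3), exceeded the SD of both neighbours, and no later step did.

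The difference in Dusp1 of SRFHKO minus control at day 25 without PE was 0.62 ± 0.13 on the log2 scale, or 1.54-fold higher (95% interval 0.34 to 0.90, limma, adjusted p = 0.0228). With PE it was -0.01 ± 0.13 (interval -0.29 to 0.27, adjusted p = 0.987), and at day 8 it was 0.09 ± 0.14 (interval -0.21 to 0.39, adjusted p = 0.883). PE minus no PE was -0.77 ± 0.13 in SRFHKO hearts, or 1.71-fold lower (interval -1.05 to -0.49, adjusted p = 0.0251), and -0.14 ± 0.13 in control hearts (interval -0.43 to 0.14, adjusted p = 0.754). Both calls rest on the same 3 untreated SRFHKO arrays. The test of the difference between the PE effects gave -0.63 ± 0.19 and did not pass (limma, adjusted p = 0.515), nor did that between the deletion effects of the days, 0.53 ± 0.20 (adjusted p = 0.274).

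The genotype call of Dusp1 at day 25 was lost when array brightness was a covariate, at 0.49 ± 0.16 (adjusted p = 0.250), and when only the 2 groups were fitted, at 0.62 ± 0.12 (adjusted p = 0.0592). It was also lost without control replicate 3 (0.51, adjusted p = 0.0979), without SRFHKO replicate 2 (0.67, adjusted p = 0.0501) and without SRFHKO replicate 3 (0.59, adjusted p = 0.0931). The PE call in SRFHKO hearts was lost when only the groups compared were fitted (-0.77, adjusted p = 0.0690), without SRFHKO replicate 1, 2 or 3 of day 25 (-0.74, -0.83 and -0.75, adjusted p = 0.0852, 0.0861 and 0.0844) and without SRFHKO PE replicate 2 (-0.75, adjusted p = 0.171). The sums of cell type markers also differed between the untreated groups at day 25 without overlap. The 8 cardiomyocyte markers summed to 62899 to 74728 in SRFHKO hearts against 77459 to 84033 in control hearts, and the 6 endothelial markers to 1199 to 1314 against 1363 to 1946. None of these 14 markers was below 9.96 on any array. The 5 lung markers summed to 30.5 to 43.5 against 61.3 to 116, and the 6 skeletal muscle markers to 11.6 to 35.2 against 44.9 to 54.5. Each marker of the lung and skeletal muscle lists was below 9.96 on at least 4 of the 18 arrays. Between SRFHKO hearts with and without PE the B cell sum alone was apart, at 18.8 to 28.1 with PE against 28.4 to 44.1 without it, over 3 markers that all fell short of the limit on average. The Gapdh 3′ to 5′ ratio was 0.820 to 0.835 in untreated SRFHKO arrays of day 25, against 0.868 to 0.945 in control arrays. The part of these in the Dusp1 difference was not tested. In ventricle RNA, fewer cells of a type and less RNA per cell cannot be told apart.

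**Figure D2:**
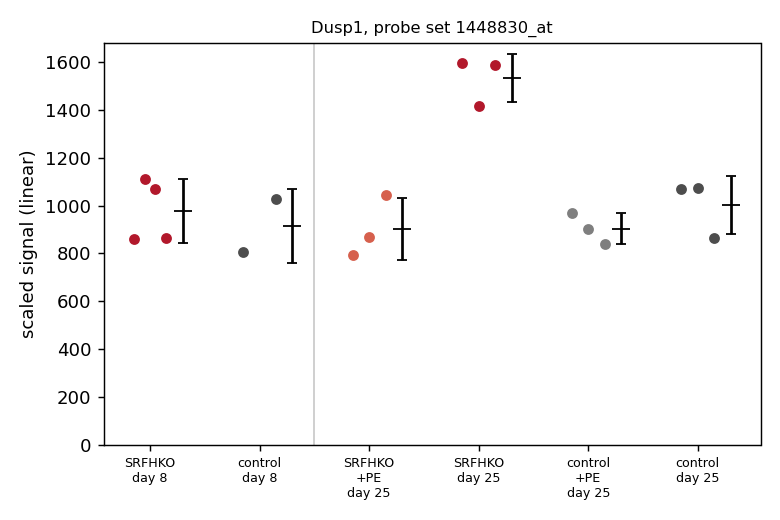
Scaled signal (y axis, linear, from 0) of Dusp1 probe set 1448830_at on each array by group (x axis), with mean and SD beside the points. The 3 untreated SRFHKO arrays of day 25 sit between 1418 and 1596 and every other array at 1113 or below.

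Dusp4, the nuclear phosphatase related to Dusp1, did not pass the test in any comparison. Its scaled signal on 1428834_at was 46.7, 33.2 and 61.5 in SRFHKO hearts with PE, against 32.6, 35.4 and 12.9 in SRFHKO hearts without it. In control hearts it was 45.9, 26.0 and 35.7 with PE, against 24.8, 23.3 and 22.9 without it. The control arrays with PE thus all lay above those without it, while the SRFHKO groups overlapped. PE minus no PE was 0.83 ± 0.37 in SRFHKO hearts (interval 0.05 to 1.62, limma, adjusted p = 0.475) and 0.53 ± 0.37 in control hearts (adjusted p = 0.671). At day 8 the level was 23.0, 25.1, 30.0 and 12.9 in SRFHKO hearts, against 24.1 and 11.2 in control hearts, and no step in the order of the 6 group means exceeded the spread.

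Dusp6, the cytoplasmic phosphatase that acts on ERK and is itself an ERK-induced feedback gene, likewise passed in no comparison. On 1415834_at it had 144, 287 and 194 in SRFHKO hearts with PE, against 121, 206 and 102 in control hearts with PE. Without PE it had 144, 161 and 152 in SRFHKO hearts, against 180, 165 and 127 in control hearts. These groups overlapped in both pairs. The difference of SRFHKO minus control was 0.55 ± 0.24 with PE (interval 0.05 to 1.04, limma, adjusted p = 0.327) and -0.03 ± 0.24 without it (adjusted p = 0.960). At day 8 it had 110, 106, 106 and 85.5 in SRFHKO hearts, against 116 and 102 in control hearts, and no step between neighbouring group means exceeded the spread.

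Dusp8, a phosphatase that prefers JNK and p38, was read by 3 probe sets, which disagreed. The brightest, 1428864_at, had 138, 245 and 109 in SRFHKO hearts at day 25, against 101, 110 and 162 in control hearts. Its differences lay between -0.04 and 0.34 in the simple comparisons, and the lowest adjusted p was 0.574. It had 99.5, 192 and 179 in SRFHKO hearts with PE, against 155, 170 and 97.6 in control hearts with PE. The SD of this probe set within the groups of day 25 was 0.35 to 0.59 on the log2 scale, and the group means lay between 6.95 and 7.29. It thus varied more within these groups than between their means. On 1418714_at the level was 46.8, 52.0 and 68.6 in SRFHKO hearts with PE and 78.9, 76.4 and 66.5 in those without it. In control hearts it was 68.5, 73.1 and 67.8 with PE and 48.3, 31.2 and 83.0 without it. For 1418714_at the PE effect was -0.41 ± 0.25 in SRFHKO hearts and 0.46 ± 0.25 in control hearts (limma, adjusted p = 0.646 and 0.566). For the dimmest, 1447346_s_at, the signs were the other way, at 1.33 ± 0.43 in SRFHKO hearts (adjusted p = 0.252) and -0.49 ± 0.43 in control hearts (adjusted p = 0.734). It had 25.4, 30.7 and 25.2 in SRFHKO hearts with PE, against 5.70, 10.6 and 13.7 in those without it, which is close to the filter limit. At day 8, SRFHKO minus control was 0.27 ± 0.30, 0.48 ± 0.27 and -0.35 ± 0.46 for the 3 probe sets from the brightest to the dimmest (adjusted p = 0.814, 0.508 and 0.843). In the same order it was 0.34 ± 0.28, 0.54 ± 0.25 and -0.79 ± 0.43 at day 25 without PE (adjusted p = 0.574, 0.275 and 0.352). With PE it was 0.14 ± 0.28, -0.33 ± 0.25 and 1.03 ± 0.43 (adjusted p = 0.899, 0.639 and 0.301). Only the dimmest probe set was thus negative in the genotype comparisons without PE. No direction common to all 3 probe sets can therefore be given for Dusp8 from these arrays.

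Dusp10, a phosphatase of JNK and p38, had its highest group mean in SRFHKO hearts given PE, but no difference passed the test. On 1417164_at it had 51.9, 91.2 and 69.4 in SRFHKO hearts with PE, against 45.4, 41.6 and 41.9 in SRFHKO hearts without it. In control hearts it had 37.3, 44.6 and 48.6 with PE, against 40.8, 52.3 and 47.7 without it. The 3 SRFHKO arrays with PE lay above the untreated SRFHKO arrays and above the control arrays with PE. PE minus no PE was 0.66 ± 0.21 in SRFHKO hearts (interval 0.23 to 1.09, limma, adjusted p = 0.234) and -0.10 ± 0.21 in control hearts (adjusted p = 0.900). SRFHKO minus control was 0.65 ± 0.21 with PE (interval 0.22 to 1.08, adjusted p = 0.148) and -0.11 ± 0.21 without it (adjusted p = 0.822). The difference between the PE effects was 0.77 ± 0.29 (adjusted p = 0.610). At day 8 Dusp10 had 49.95, 47.3, 42.0 and 61.3 in SRFHKO hearts, against 37.3 and 34.0 in control hearts. In the order of group means the first step, from SRFHKO with PE to SRFHKO at day 8, and the last, from untreated SRFHKO at day 25 to control at day 8, exceeded the spread.

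The second Dusp10 probe set, 1417163_at, ranged from 1.05 to 25.2 and lay below the filter limit on 12 of 18 arrays. Dusp26, an atypical member of the family, ranged from 2.19 to 17.8 on 1425848_a_at and did not pass the filter either. When all probe sets were fitted without the filter, neither passed in any comparison.

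**Figure D3:**
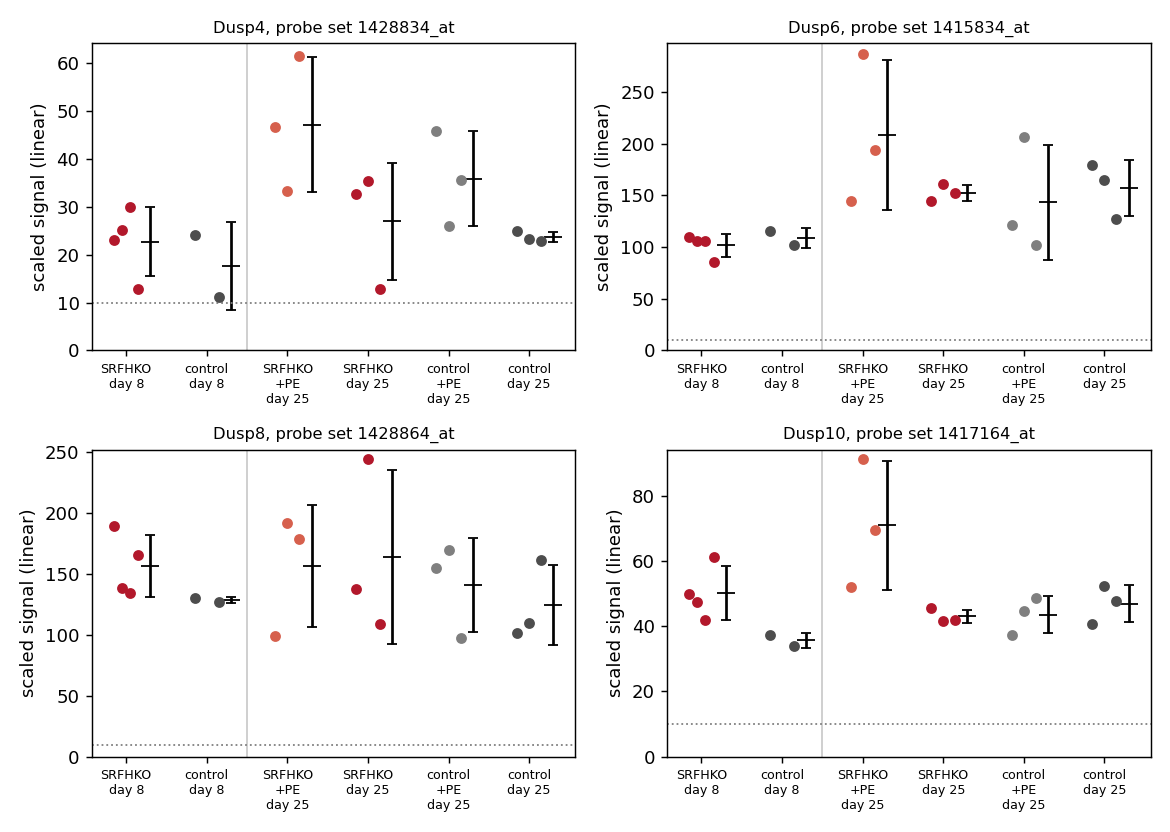
Scaled signal (y axes, linear, from 0) of Dusp4, Dusp6, the brightest Dusp8 probe set and Dusp10 on each array by group (x axes), with mean and SD beside the points and the filter limit as a dotted line. The SRFHKO arrays with PE reach 61.5 for Dusp4, 287 for Dusp6 and 91.2 for Dusp10, the highest of any array for each of the 3 genes. The values of Dusp6 and Dusp10 are from the same array, where Dusp4 was at 33.2, the lowest of its group. No difference of these genes passed the test.

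Mapk14 encodes p38 alpha, the main p38 kinase of the heart. It had 6 probe sets, of which 5 passed the filter, and they did not move together. The brightest, 1416703_at, had 464, 341, 403 and 347 in SRFHKO hearts at day 8, against 397 and 353 in control hearts. At day 25 it had 423, 317 and 336 in SRFHKO hearts without PE, against 490, 428 and 382 in control hearts. With PE it had 310, 294 and 334 in SRFHKO hearts, against 361, 417 and 332 in control hearts. The groups overlapped in each of these pairs. SRFHKO minus control was 0.04 ± 0.15 at day 8, -0.27 ± 0.14 at day 25 without PE and -0.24 ± 0.14 with PE (limma, adjusted p = 0.960, 0.333 and 0.519), and no step between neighbouring group means exceeded the spread.

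The dimmer Mapk14 probe sets differed most at day 8. On 1459617_at the level was 40.7, 38.6, 34.4 and 37.9 in SRFHKO hearts, against 13.8 and 4.62 in control hearts, and these 2 control arrays were below all 16 others. The difference was 1.96 ± 0.40 (interval 1.12 to 2.80, limma, adjusted p = 0.0531). On 1416704_at it was 95.4, 86.5, 81.8 and 78.7 in SRFHKO hearts, against 61.6 and 24.9 in control hearts, a difference of 1.08 ± 0.30 (adjusted p = 0.117). Leaving out either control array of day 8 leaves 1, which is then assumed to vary like the arrays of the other groups. Without control replicate 1 both passed, at 2.59 (adjusted p = 0.0100) for 1459617_at and 1.70 (adjusted p = 0.0111) for 1416704_at. Without control replicate 2 neither did, at 1.33 (adjusted p = 0.343) and 0.46 (adjusted p = 0.802). On 1451927_a_at, at 34.6, 24.8, 30.3 and 34.4 in SRFHKO hearts against 20.7 and 11.1 in control hearts, the difference was 0.93 ± 0.35 (adjusted p = 0.279). It was opposite in sign for 1442364_at, at -1.89 ± 0.62 (adjusted p = 0.204). On this probe set the level was 9.41, 3.68, 14.4 and 4.57 in SRFHKO hearts, against 27.1 and 37.2 in control hearts.

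At day 25 without PE, 1442364_at had 46.0, 11.9 and 5.99 in SRFHKO hearts, against 37.5, 48.1 and 51.3 in control hearts. The difference was -1.44 ± 0.59 (limma, adjusted p = 0.210). Without SRFHKO replicate 1, the array at 46.0, it was -2.17 (adjusted p = 0.0453), and without SRFHKO replicate 3, the array at 5.99, it was -0.87 (adjusted p = 0.572). The 5 probe sets thus give no common direction for Mapk14. With PE the level of 1442364_at was 11.5, 4.51 and 12.2 in SRFHKO hearts, against 47.6, 28.8 and 10.8 in control hearts, a difference of -1.32 ± 0.59 (adjusted p = 0.343). On this probe set the SRFHKO mean was below the control mean in all 3 genotype comparisons, and none passed. The probe set below the filter, 1426104_at, ranged from 0.666 to 25.6.

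Mapk8 encodes JNK1, a stress-activated kinase, and none of its 5 probe sets passed the test in any comparison. The brightest, 1420932_at, had 119, 142 and 133 in SRFHKO hearts at day 25 without PE, against 145, 153 and 142 in control hearts, and all 18 arrays lay between 87.7 and 156. Its differences in the simple comparisons lay between -0.33 and 0.28. The next brightest, 1440856_at, was as even, between 64.2 and 104 on all arrays, with differences between -0.13 and 0.19. On 1457936_at the level with PE was 22.2, 36.9 and 45.3 in SRFHKO hearts, against 55.4, 62.8 and 75.5 in control hearts, without overlap. The difference was -0.90 ± 0.28 with PE (interval -1.48 to -0.31, limma, adjusted p = 0.141) and -0.62 ± 0.28 without it (adjusted p = 0.254). The brightest probe set gave 0.28 ± 0.18 with PE (adjusted p = 0.543), of the other sign. At day 8, 1437045_at had 35.3, 29.3, 39.9 and 30.3 in SRFHKO hearts, against 22.8 and 21.8 in control hearts, which were below all 16 others, a difference of 0.54 ± 0.21 (adjusted p = 0.295). The dimmest, 1420931_at, lay between 6.87 and 35.6, and its largest difference was 0.62 ± 0.43 at day 8 (adjusted p = 0.629).

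At day 8, all 4 SRFHKO arrays lay above both control arrays for 8 of the 17 probe sets, of Dusp8, Dusp10, Mapk14 and Mapk8, where 13.5% of all probe sets did so. These comparisons rest on the 2 control arrays with the high Gapdh ratio and 18S rRNA signal described above. The 7 fibroblast markers summed to 4956 to 6155 in SRFHKO hearts at day 8 against 7062 to 9437 in control hearts, and the 6 endothelial markers to 1746 to 1962 against 1637 to 1660. The part of these measures in the differences at day 8 was not tested.

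**Figure D4:**
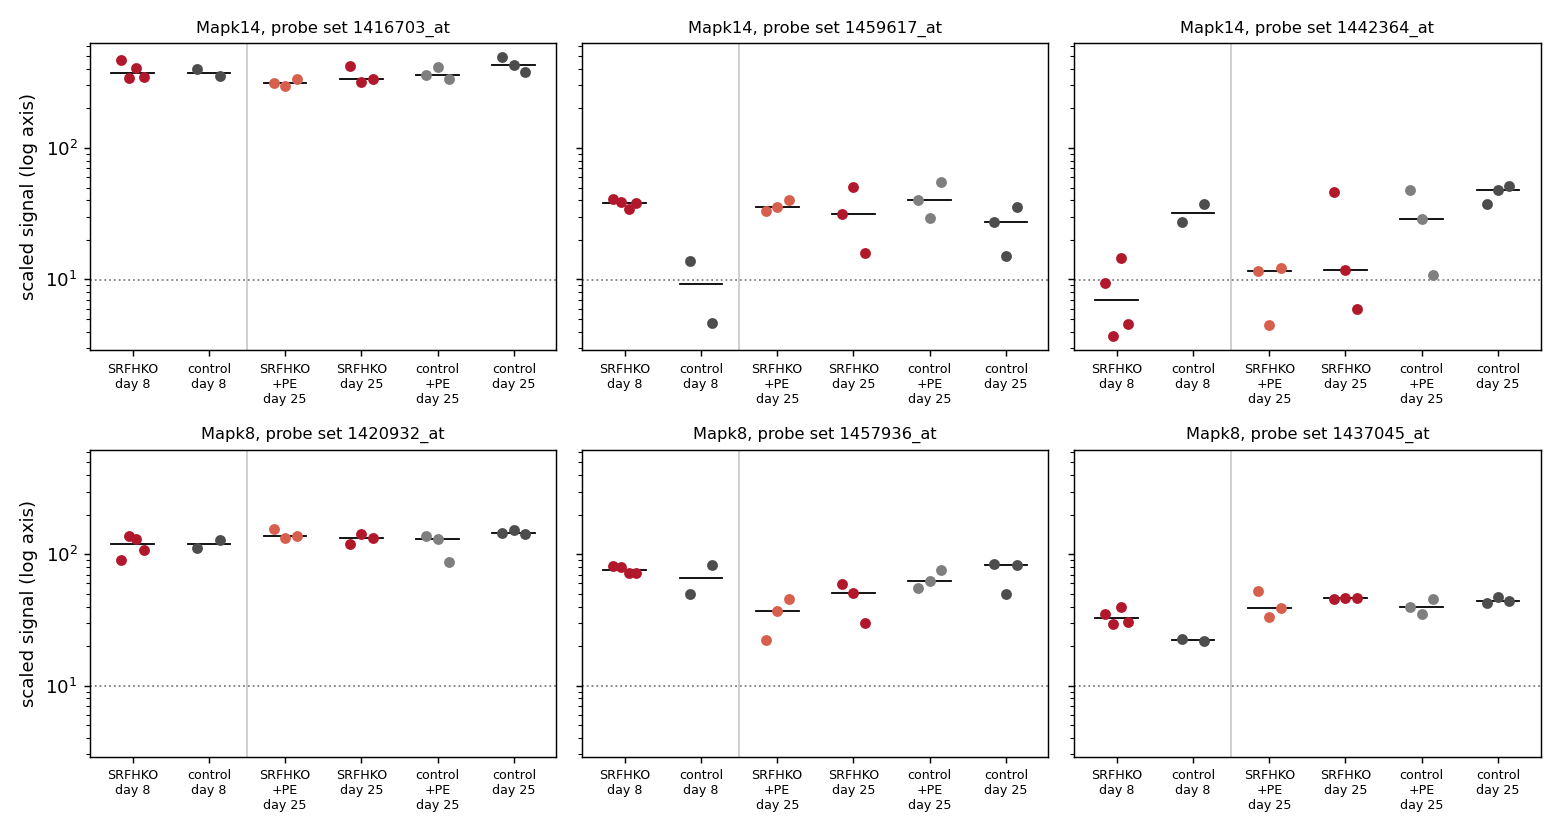
Scaled signal (y axes, log scale) of 3 Mapk14 probe sets (top) and 3 Mapk8 probe sets (bottom) on each array by group (x axes), with a bar at the median and the filter limit as a dotted line. The brightest Mapk14 probe set stays between 294 and 490 while 1459617_at drops to 4.62 and 13.8 in the control arrays of day 8 and 1442364_at runs from 3.68 to 51.3.

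The rest of the pathway was read from 10 lists of 124 genes, 97 of them measured after the filter, each by its brightest probe set. Of these, 2 rose and 0 fell in SRFHKO minus control at day 25 without PE, where 2.21% of all 12610 genes were called. With PE 2 rose and 0 fell, against 1.19% of all. None passed at day 8 (0.0714% of all), with PE in control hearts (0.0238% of all) or with PE in SRFHKO hearts (0.222% of all). The median difference of the 97 was -0.03 at day 8, 0.02 at day 25 without PE and 0.02 with PE, where the median of all genes was -0.00, -0.05 and -0.00. For PE it was -0.01 in control and 0.06 in SRFHKO hearts, where that of all genes was -0.03 and -0.01.

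The genes that rose each came from a different list. Calls of 2 among 97 are near the shares of all genes given above, so they are not read as a change of the pathway. Among 9 measured ERK feedback and readout genes, Phlda1, a growth-factor-induced gene, had 425, 823 and 550 in SRFHKO hearts with PE, against 167, 243 and 125 in control hearts with PE. It was 3.33-fold higher there, a difference of 1.74 ± 0.29 (limma, adjusted p = 0.00653). Without PE its difference was 0.94 ± 0.29 (adjusted p = 0.0923), and the difference between the PE effects, 0.79 ± 0.41, did not pass (adjusted p = 0.695). The call with PE was lost without SRFHKO PE replicate 2, the array at 823, at 1.48 (adjusted p = 0.0536).

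Among 6 measured MAP kinase kinases, Map2k3, one of the kinases that activate p38, had 640, 678 and 661 in SRFHKO hearts with PE, against 459, 455 and 485 in control hearts with PE. The difference was 0.50 ± 0.10, or 1.41-fold higher (limma, adjusted p = 0.0196), and its second probe set gave 0.46 ± 0.15 (adjusted p = 0.168). Without PE it was -0.03 ± 0.10 (adjusted p = 0.901). The call with PE was lost when only the groups compared were fitted (adjusted p = 0.0672). It was also lost without control PE replicate 1 or 3 (0.49 and 0.53, adjusted p = 0.0750 and 0.0526) and without SRFHKO PE replicate 2 or 3 (0.48 and 0.50, adjusted p = 0.0923 and 0.0502). The test of the difference between the PE effects gave 0.53 ± 0.14 and did not pass (adjusted p = 0.454). In the same comparison, which called Phlda1 as well, the 8 cardiomyocyte markers summed to 62117 to 66118 in SRFHKO hearts with PE against 68453 to 79781 in control hearts with PE. The 2 measured Schwann cell and nerve markers, Mbp and S100b, summed to 52.4 to 56.6 in SRFHKO hearts with PE against 28.0 to 45.1 in control hearts with PE, and the sums of the 10 other marker lists overlapped. The part of these in the differences of Map2k3 and Phlda1 was not tested.

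Among 18 measured MAP kinase kinase kinases, Map3k20, a stress-activated kinase upstream of p38 and JNK, had 2435, 2617 and 2827 in SRFHKO hearts at day 25 without PE, against 1909, 2059 and 1750 in control hearts. The difference was 0.46 ± 0.11, or 1.38-fold higher (limma, adjusted p = 0.0374), and its 3 other probe sets gave 0.30 to 0.93 without passing. The brightest Map3k20 probe set gave 0.39 ± 0.11 with PE and -0.12 ± 0.12 at day 8 (adjusted p = 0.114 and 0.778). Among 15 measured genes of the Ras module and scaffolds, Grb2, the adaptor that links receptors to Ras, had 466, 505 and 432 in untreated SRFHKO hearts, against 335, 375 and 294 in control hearts. The difference was 0.48 ± 0.12, or 1.40-fold higher (adjusted p = 0.0479), and its second probe set gave 0.10 ± 0.20 (adjusted p = 0.836). The brightest Grb2 probe set gave 0.33 ± 0.12 with PE and 0.33 ± 0.13 at day 8 (adjusted p = 0.240 and 0.309). The rise of either gene is thus not shown to be particular to untreated hearts. With array brightness as a covariate the differences without PE were 0.30 for Map3k20 and 0.37 for Grb2 and neither passed (adjusted p = 0.364 and 0.358). Neither passed with quantile normalization (adjusted p = 0.0509 and 0.0630) or without the filter (adjusted p = 0.0621 and 0.0595). The same held when only the groups compared were fitted (adjusted p = 0.0825 and 0.142). The Map3k20 call was also lost without control replicate 1 or 3 (0.47 and 0.40, adjusted p = 0.0961 and 0.136) and without SRFHKO replicate 2 or 3 (0.46 and 0.41, adjusted p = 0.0988 and 0.158). The Grb2 call was lost without control replicate 1 or 3 (0.49 and 0.39, adjusted p = 0.115 and 0.177) and without SRFHKO replicate 1, 2 or 3 (0.48, 0.43 and 0.54, adjusted p = 0.0757, 0.168 and 0.0938). In the 6 other lists, of typical and atypical phosphatases, tyrosine phosphatases, other MAP kinases, downstream kinases and transcription factors, none of the measured genes passed in any of the 5 simple comparisons.

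The genes whose levels ran most like each member's brightest probe set were found by correlation over the 12 arrays of day 25, as a description. These arrays share 4 groups and the scaling, and the genes were picked as the highest of all, so r is given with no p. For Dusp1 they were Casd1 (r = 0.866) and Psma5 (r = 0.860), and over all 18 arrays r was 0.413 and 0.372. For Dusp6 they were Rbms3 (r = 0.934) and Parva (r = 0.904), and for Dusp4 Slco2a1 (r = 0.900) and Gkap1 (r = 0.883). For Dusp8 they were Smad7 (r = 0.877) and Unkl (r = 0.843), and for Dusp10 Slc23a2 (r = 0.937) and Filip1l (r = 0.908). For the kinases they were Naa40 (r = 0.921) and Cluh (r = 0.907) with Mapk14, and Tmco2 (r = 0.923) and Ghdc (r = 0.920) with Mapk8. Over all 18 arrays r was lower for each of these pairs too. In the order named it was 0.738 and 0.236 for Dusp6, 0.505 and 0.672 for Dusp4, and 0.689 and 0.647 for Dusp8. It was 0.509 and 0.748 for Dusp10, 0.679 and 0.756 for Mapk14, and 0.565 and 0.213 for Mapk8. No member was among these nearest genes of another member.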

How the data were processed

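Ventricle RNA of 18 male mice was measured on Affymetrix arrays, with groups taken from the sample titles. Per the labels' protocols, Trizol was used for extraction and the cRNA carried biotin. The deposited values are linear intensity per probe set, which per the submitters' processing notes came from GCOS; its version, signal algorithm and scaling are not given in those sources. Trimmed means (2% from each end) ran from 46.6 to 148, so each array was scaled to 90.6, a pseudocount of 2 was added and log2 was taken. Removed were 64 control probe sets and those with a mean below the 40th percentile (log2 3.58, a scaled signal of 9.96), which left 27000 probe sets and 12610 genes. Probe sets were named through the array's annotation and current RefSeq symbols (GRCm38.p6). One limma model (R 4.3.3, limma 3.58.1, data.table version 1.17.8) with a mean per group, an intensity trend and empirical Bayes moderation was fitted over the 18 arrays. Two-sided p-values were adjusted (Benjamini-Hochberg) over all 27000 probe sets, for members and pathway lists alike, with a threshold of 0.05; intervals are 95% from the moderated fit. The model fit was tested on simulated data with planted changes. The scaling, the filter and the naming of probe sets were not part of that test. With 3 arrays against 3, the smallest p of an exact permutation test is 0.1. The number of arrays limits the precision.

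The members and the lists were chosen with earlier results of these data known. Named were all members, and of the pathway lists the genes whose brightest probe set passed the test, all of them in simple comparisons. The groups compared did not overlap for these genes, but this was not a condition. The likest genes are the 2 with the highest r per member. Probe sets of 1 gene were kept apart for members, and the brightest stood for each other gene. Alternatives were quantile normalization, a pseudocount of 8, no filter, a filter at the 60th percentile, a single probe set per gene, only the groups compared, a replicate block, brightness as a covariate and leaving out each replicate.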

Additional observations from a re-analysis of the deposited data

Results flagged for a closer look

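For Dusp6 (1415834_at), 1 of the 4 SRFHKO arrays of day 8 lay apart from the others, at a scaled signal of 85.5 against 106, 106 and 110. On the log2(scaled signal + 2) scale used for the tests, its gap to the nearest was 0.836 of the group's range, above Dixon's 95% critical value for 4 samples. On the scaled signal itself the gap was 0.819 of the range and below that value, so the mark depends on the scale. Chance marks about 1 in 20 groups this way, and 17 probe sets were examined in this group of 4.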

How the results depend on the processing

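Member probe sets tested were 17 in most alternatives, 20 without the filter, 11 at the 60th percentile and 7 with a single probe set per gene. None passed at day 25 with PE, for PE in control hearts or for either difference between effects in any setting run. SRFHKO minus control at day 25 without PE called 0 when only the groups compared were fitted and 0 with brightness as a covariate, against 1 otherwise, and 0 to 2 when each replicate was left out. PE minus no PE in SRFHKO hearts called 0 when only the groups compared were fitted and 0 to 1 when each replicate was left out, and day 8 called 0 to 2 when each was left out. The cause was not tested, though the fit of only the groups compared holds fewer arrays. No called difference changed sign. Over the alternatives that keep all 27000 probe sets, the counts of calls were 46 (1 to 380) at day 8, 251 (48 to 305) at day 25 with PE and 591 (60 to 748) without, 50 (2 to 116) for PE in SRFHKO hearts and 7 (3 to 17) in control hearts, and 1 (0 to 4) and 11 (2 to 80) for the differences of PE effects and of deletion effects. With a single probe set per gene, which tests 12610, the last was 0. The call for Phlda1 with PE was lost in 1 of 14 alternatives (without SRFHKO PE replicate 2, adjusted p = 0.0536) and that for Map2k3 in 5 of 14. Map3k20 and Grb2 without PE were lost in 8 and 9 of 14.

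The samples of different groups share replicate numbers. Among the day 25 groups the deviations of same-numbered arrays had r from -0.04 to 0.07 in 18 pairs, 0 of them over 0.1, so the number was not taken as a pairing. In 12 of the 18 the best match among the 3 arrays of the other group had the same number, a hint from the data and not from the design. With the replicate number as a block, 0 member probe sets were called at day 8, 1 at day 25 without PE, 0 with PE, 0 for PE in control hearts and 1 for PE in SRFHKO hearts, the same counts as without it. Signal near the filter limit, as for Mapk14 1442364_at and Dusp8 1447346_s_at, is the least precise.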
